A study of Mus musculus with 20 samples.

Results

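The collagen IV chains are the products of Col4a1, Col4a2, Col4a3, Col4a4, Col4a5 and Col4a6. These 6 genes were chosen by symbol from the 34255 genes of the read count table, and all 6 have a row in it. Collagen IV is the network-forming collagen of basement membranes. Its chains wind into helical trimers that join at their ends into sheets, to which laminin networks, nidogen and perlecan are bound. The trimer of Col4a1 and Col4a2 chains is found in nearly all basement membranes, including those around vascular smooth muscle cells and beneath endothelium. The trimer of Col4a3, Col4a4 and Col4a5 chains is best known from the mature glomerular basement membrane, where podocytes secrete it, and also occurs around some tubules. Mutations in the genes of this trimer cause Alport syndrome, and the Col4a3 chain carries the antigen of Goodpasture disease. A trimer that holds Col4a5 and Col4a6 chains is known from Bowman's capsule, some tubules and some smooth muscle.

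Transcript levels of these chains were compared between whole kidney and 4 microvascular compartments, namely arterioles, glomeruli, peritubular capillaries and, downstream of them, post-capillary venules, with 4 libraries in each of the 5 groups. All tissue came from healthy adult male wild-type mice of the C57BL6/OlaHsd strain, and no group carried a transgene. The header of the count table enters all 20 libraries as control with a time of 4 h, and no source used here says what that time counts from. The vessels were obtained by laser microdissection of cryosections, a method that cuts out a structure seen under the microscope together with all cells inside its outline. Arterioles, glomeruli and venules were found by shape after hematoxylin staining and capillaries by the endothelial lectin isolectin B4. A smaller area was taken for arterioles and capillaries than for glomeruli and venules, and the microdissected libraries received a low-input protocol and more PCR cycles than whole kidney. This difference in preparation and the difference between vessel and whole kidney cannot be told apart. The samples are labelled as biological replicates, but no label names the mouse behind a sample, and a p-value therefore measures only how these samples vary. The study's methods took arterioles, glomeruli and venules of a mouse from the same slide, so compartments can share mice, but no source used here says whether a number in the table marks a mouse. Libraries are called by group and by their number in the table, as in arteriole 96, and values are listed for 93, 96, 98 and 100 in that order.

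Library totals ran from 4639090 to 12283098 counts, and no libraries held identical values. Each count stands for a read near the 3′ end of a transcript, so the counts are not scaled by gene length. Levels are given in CPM, the standard unit of a gene's count relative to its library total, with totals scaled by the TMM method. The labelled structures were checked against marker lists, of which every gene had counts in every group. Podocyte markers held 0.936 to 1.15% of counts in glomeruli and 0.0142 to 0.155% in the other groups. Smooth muscle markers held 1.58 to 2.66% in arterioles and at most 0.211% elsewhere. Proximal tubule markers held 6.42 to 8.29% in peritubular capillary libraries, above the 4.24 to 4.56% of whole kidney. Endothelial markers held 0.0341 to 0.0907% in those capillary libraries, which overlapped the 0.0416 to 0.0476% of whole kidney, so the capillary libraries did not separate from whole kidney by this list. In such bulk samples, fewer cells of a type and less RNA per cell cannot be told apart.

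The 6 genes lie in 3 pairs that point away from each other, which is shown here because the members of a pair are compared below. By the GENCODE M21 annotation of mouse build GRCm38, Col4a1 (ENSMUSG00000031502) lies on chr8:11198423-11312826 on the minus strand and Col4a2 (ENSMUSG00000031503) on chr8:11312805-11449287 on the plus strand, and their annotated 5′ ends overlap by 22 bases. Col4a4 (ENSMUSG00000067158, chr1:82448423-82586849, minus) and Col4a3 (ENSMUSG00000079465, chr1:82586921-82722059, plus) start with 71 bases between them. Col4a6 (ENSMUSG00000031273, chrX:141165403-141474076, minus) and Col4a5 (ENSMUSG00000031274, chrX:141475385-141689234, plus) start with 1308 bases between them. The DNA of these start regions, from the RefSeq promoter windows of GRCm38.p6, is given 5′ to 3′ on the named strand, with any match to a searched motif in capitals.
Col4a1 and Col4a2 starts, chr8:11312801-11312830, plus strand: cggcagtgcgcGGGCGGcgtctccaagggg
Between the Col4a4 and Col4a3 starts, chr1:82586850-82586920, plus strand: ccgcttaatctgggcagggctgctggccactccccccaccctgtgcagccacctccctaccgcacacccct
Before the Col4a5 start, chrX:141475265-141475384, plus strand: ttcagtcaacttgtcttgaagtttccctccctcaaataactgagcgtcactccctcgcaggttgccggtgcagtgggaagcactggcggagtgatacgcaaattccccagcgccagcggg
Before the Col4a6 start, chrX:141474077-141474196, minus strand: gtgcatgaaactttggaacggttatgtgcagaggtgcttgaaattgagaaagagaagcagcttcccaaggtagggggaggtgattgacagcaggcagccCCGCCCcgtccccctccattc

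A set of 4 short motifs was searched on both strands of the 300-base promoter windows, which were at hand for 5 of the 6 members (Col4a1, Col4a2, Col4a4, Col4a5 and Col4a6). The GC box core GGGCGG was present in the windows of Col4a1, Col4a2, Col4a5 and Col4a6 and in 35.7% of all 32851 windows. The CCAAT box was present in the windows of Col4a1, Col4a2 and Col4a5 and in 37.4% of all windows, and the TATA box TATAAA in none of the 5 and in 13.6% of all. The motif CCCTCCCC was present in the windows of Col4a1, Col4a2 and Col4a5 and in 10.8% of all. The windows of Col4a1 and Col4a2 overlap and share sequence, and the motifs were chosen after the sequences had been seen. The 30 bases at the Col4a1 and Col4a2 starts were 80.0% G and C, and the 71 bases between Col4a4 and Col4a3 were 69.0%.

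Col4a1 and Col4a2, the chains of the widespread trimer, reached their highest mean levels in arterioles, and both were higher there than in whole kidney. Col4a1 stood at 1380.1, 2429, 365 and 300.0 CPM in the 4 arteriole libraries and between 151 and 174 CPM in the 4 whole kidney libraries. All arteriole libraries thus lay above all whole kidney libraries, but arterioles 93 and 96 were several times higher than arterioles 98 and 100. The mean was 1119 ± 1004 CPM (SD, n = 4) in arterioles and 161 ± 9.36 CPM (SD, n = 4) in whole kidney, a 6.94-fold ratio of means. The log2 fold change in edgeR's quasi-likelihood test was 2.79 with a standard error of 0.48 (edgeR FDR = 0.000106, the Benjamini-Hochberg value over the 13813 genes tested). A gene was called here if its FDR was below 0.05 and its log2 fold change beyond 1 in either direction.

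Col4a2 showed the same order of libraries within arterioles less sharply, with 1548, 1674, 628 and 275 CPM, against 69.9 to 88.2 CPM in whole kidney. Its mean of 1031 ± 687 CPM (SD, n = 4) was 13.0 times the 79.6 ± 8.30 CPM (SD, n = 4) of whole kidney, with a log2 fold change of 3.70 ± 0.54 (SE, edgeR FDR = 6.87e-06). Of the 6 members, 2 were called higher and 0 lower in arterioles, where 11.3% of all genes tested were called either way and 5.78% were called higher. The median log2 fold change of all genes tested was 0.22. Both calls remained when any 1 library was left out, with a highest edgeR FDR of 0.00163 for Col4a1 and 0.000165 for Col4a2. The size of both differences depended on the scaling. With total counts the log2 fold changes were 1.98 for Col4a1 and 2.98 for Col4a2, and with RLE size factors 3.12 and 3.98. Both genes were called either way. Smooth muscle markers, mesangial and pericyte markers (0.431 to 0.629%) and fibroblast markers (0.203 to 0.316%) also held a larger share in arterioles than in whole kidney (0.0144 to 0.0180% and 0.0313 to 0.0365% for the last lists). Endothelial (0.185 to 0.294%) and podocyte markers (0.0839 to 0.155%, against 0.0237 to 0.0283%) did so as well, and the part of these cells in the levels of both chains was not tested.

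In glomeruli, Col4a1 stood at 426, 413, 492 and 614 CPM, a narrow range that lay above every whole kidney library. The mean of 486 ± 92.0 CPM (SD, n = 4) was 3.01 times that of whole kidney, with a log2 fold change of 1.59 ± 0.46 (SE, edgeR FDR = 0.0475). Col4a2 stood at 384, 201, 371 and 272 CPM in glomeruli, also above every whole kidney library. The ratio of means was 3.86 and the log2 fold change 1.95 ± 0.50 (SE, edgeR FDR = 0.0208). Both genes were thus called higher, 2 of 6 members against 3.06% of all genes called either way, 1.59% higher, and a median log2 fold change of 0.25 over all genes. These calls were near the threshold: Col4a1 was no longer called in 12 of the 20 fits that each left out 1 library (highest edgeR FDR = 0.139), namely each that left out a glomerular, venule or whole kidney library, nor with RLE scaling or DESeq2. Col4a2 lost its call in 6 of the 20, without glomerulus 93 or 98 or any 1 whole kidney library (highest edgeR FDR = 0.0870). Podocyte, endothelial (0.307 to 0.444% against 0.0416 to 0.0476%), mesangial and pericyte (up to 0.168%, against at most 0.0180%) and smooth muscle markers (0.105 to 0.211% against 0.0314 to 0.0371%) all held a larger share in every glomerular than in any whole kidney library, and their part was not tested.

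Neither chain passed the test in peritubular capillaries or venules, although by TMM-scaled CPM their libraries lay above all whole kidney libraries. Col4a1 stood at 308, 205, 223 and 392 CPM in capillaries, and the log2 fold change was 0.81 ± 0.46 (SE, edgeR FDR = 0.492). In venules Col4a1 stood at 317, 245, 344 and 284 CPM, and the log2 fold change was 0.88 ± 0.46 (SE, edgeR FDR = 0.574). The capillaries and venules were therefore at like levels of Col4a1, with means of 282 and 298 CPM. Col4a2 stood at 156, 155, 277 and 345 CPM in capillaries (log2 fold change 1.55 ± 0.50, SE, edgeR FDR = 0.263), and it did pass there when only these 8 libraries were fitted (edgeR FDR = 0.0114). In venules Col4a2 ranged more widely, with 88.7, 116, 153 and 355 CPM (log2 fold change 1.16 ± 0.49, SE, edgeR FDR = 0.404). None of the 6 members was called in capillaries or venules in the 20-library edgeR fit or in DESeq2, apart from Col4a2 in capillaries with independent filtering in place of the filter on low counts (edgeR FDR = 0.0310). That edgeR fit called 0.0941% and 0.224% of all genes tested in capillaries and venules, and 1 member in each had an unadjusted edgeR p under 0.05.

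**Figure D1:**
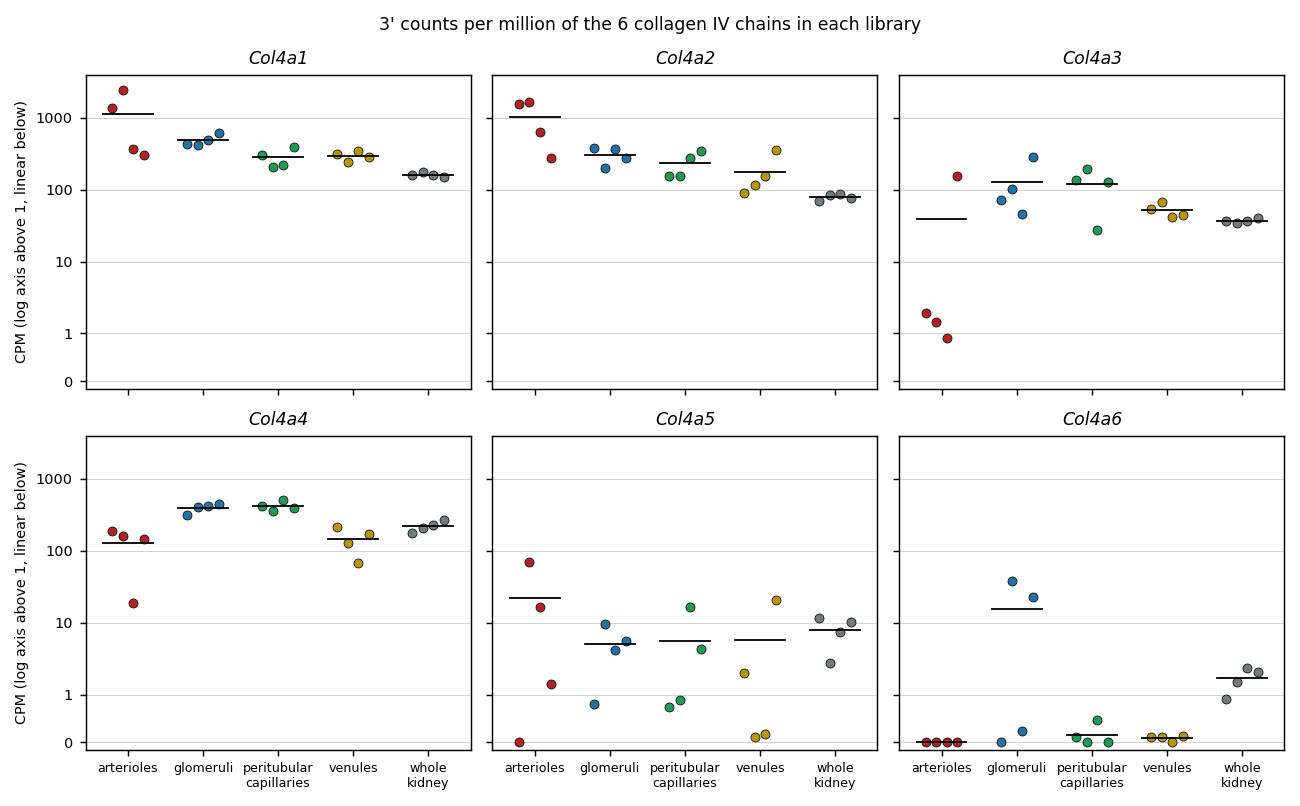
Level of each collagen IV chain in CPM (vertical axis, logarithmic above 1 and linear below) in the 4 libraries of each group (points, in the order 93, 96, 98 and 100 from left to right) with the arithmetic mean (line). Col4a1 and Col4a2 have their highest means in arterioles, Col4a3 in arterioles is near 1 CPM in 3 libraries and 155 CPM in arteriole 100, and Col4a6 is at 0 in all arteriole libraries.

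Between the microdissected compartments, Col4a1 and Col4a2 were higher in arterioles than in capillaries and venules, the only calls among the 30 tests of 5 members in 6 pairs. Col4a6 did not pass the filter on low counts in these 16 libraries. Against capillaries, the log2 difference of arterioles was 1.99 ± 0.51 for Col4a1 (SE, edgeR FDR = 0.00808) and 2.15 ± 0.54 for Col4a2 (SE, edgeR FDR = 0.00754), in a comparison where 11.2% of the 12179 genes tested were called and 6.22% were called higher. Against venules, it was 1.90 ± 0.51 for Col4a1 (SE, edgeR FDR = 0.0231) and 2.53 ± 0.55 for Col4a2 (SE, edgeR FDR = 0.00428), where 4.37% of genes were called and 2.5% higher. The groups overlapped for both genes in both comparisons, since arteriole 100 lay within the capillary and venule ranges, and arteriole 98 within the capillary range of Col4a1. The calls for Col4a1 were lost without arteriole 96 (edgeR FDR = 0.0769 against capillaries and 0.158 against venules), and the call against venules also without arteriole 93 or any 1 of the venule libraries. The call of Col4a1 against venules also ended with scaling by total counts (edgeR FDR = 0.0831), with the replicate block (edgeR FDR = 0.0512) and when only the libraries compared were fitted (edgeR FDR = 0.0833), and the last setting ended its call against capillaries too (edgeR FDR = 0.0546).

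Neither Col4a1 nor Col4a2 passed the test between arterioles and glomeruli. The log2 difference was 1.20 ± 0.50 for Col4a1 (SE, edgeR FDR = 0.182) and 1.75 ± 0.54 for Col4a2 (SE, edgeR FDR = 0.0786), and no member was called by edgeR where 2.18% of genes were (3 of the 5 members had an unadjusted p under 0.05). Col4a2 passed this comparison without arteriole 100 (edgeR FDR = 0.0220), with RLE scaling, without the filter on low counts, with the independent filter, in the version 4 form of the edgeR test and in DESeq2. No difference in Col4a1 or Col4a2 among glomeruli, capillaries and venules passed, with edgeR FDRs from 0.460 to 0.997, although all glomerular libraries lay above all capillary and all venule libraries in Col4a1. Across the 12179 genes, 9.77% lay wholly higher in glomeruli than in capillaries and 6.97% wholly higher than in venules. No member was called in the 16-library edgeR fit or in DESeq2 in these last 3 pairs, in which edgeR called 4.47% (glomeruli and capillaries), 1.22% (glomeruli and venules) and 0.386% (capillaries and venules) of genes, and 0, 1 and 1 members had an unadjusted edgeR p under 0.05.

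Compared with the average of the other 3 compartments on the log2 scale, each weighing the same, arterioles were higher in Col4a1 by 1.70 ± 0.37 on the log2 scale (SE, edgeR FDR = 0.00171) and in Col4a2 by 2.14 ± 0.39 (SE, edgeR FDR = 0.000164), and 11.3% of genes were called there, 8.08% higher. Both chains had over 10 CPM in all arteriole libraries. No member was called in glomeruli, capillaries or venules in the main edgeR fit of this comparison or in DESeq2, where edgeR called 3.78%, 7.18% and 0.509% of genes and 1, 2 and 1 members had an unadjusted edgeR p under 0.05. Col4a6, which the filter on low counts had removed, was called higher in glomeruli without that filter (edgeR FDR = 0.00951) and with independent filtering (edgeR FDR = 0.00860), and Col4a4 was called higher in glomeruli with scaling by total counts (edgeR FDR = 0.0127). Without arteriole 100, Col4a3 was called higher in glomeruli (2.61, edgeR FDR = 0.0142) and capillaries (2.52, edgeR FDR = 0.0118). Without arteriole 96, the difference in Col4a1 fell to 1.02 and was not called (edgeR FDR = 0.0905).

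Col4a4, a chain of the Alport trimer, had another order of groups, with its highest levels in capillaries and glomeruli. It stood at 426, 354, 510.0 and 393 CPM in capillaries and at 310.3, 407, 418 and 449 CPM in glomeruli. Whole kidney held 174, 206, 229 and 270.4 CPM, below all libraries of both compartments. Even so, the log2 fold change of 0.94 ± 0.51 in capillaries (SE, edgeR FDR = 0.466) and of 0.85 ± 0.51 in glomeruli (SE, edgeR FDR = 0.489) did not pass. The separation of capillaries from whole kidney depends on the TMM scaling. By unscaled totals, Col4a4 in capillary 100 (2015 of 7903657 counts) fell below whole kidney 100 (2874 of 8905855). Arterioles (189, 161, 18.7 and 148 CPM) and venules (214, 127, 68.6 and 173 CPM) held less Col4a4 than capillaries or glomeruli in all libraries. The mean in arterioles was 129 ± 75.6 CPM (SD, n = 4), 0.307 times the 421 ± 66.3 CPM (SD, n = 4) of capillaries. This difference was at the edge of the threshold with a log2 value of -1.70 ± 0.58 (SE, edgeR FDR = 0.0505). It passed with the replicate block (edgeR FDR = 0.0445), in the version 4 form of the test (edgeR FDR = 0.0228) and with scaling by total counts (edgeR FDR = 0.0178). No other alternative that kept all libraries called it. When 1 library was left out, it passed only without arteriole 93, with edgeR FDRs from 0.0414 to 0.109. The difference from glomeruli was -1.62 ± 0.58 (SE, edgeR FDR = 0.129). Among all genes, 7.15% lay wholly lower in arterioles than in capillaries and 7.79% wholly lower than in glomeruli. Scaling by total counts called Col4a4 lower in arterioles than in whole kidney, glomeruli and capillaries.

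Venules against capillaries and glomeruli gave the same picture for Col4a4 with smaller differences. Capillaries exceeded venules by 1.52 ± 0.58 (log2, SE, edgeR FDR = 0.293) and glomeruli exceeded them by 1.44 ± 0.58 (log2, SE, edgeR FDR = 0.260). The latter difference was called when only these 8 libraries were fitted (1.40, edgeR FDR = 0.0239), and 3.19% of all genes lay wholly higher in capillaries than in venules. Glomeruli differed from capillaries by -0.08 ± 0.56 on the log2 scale (SE, edgeR FDR = 0.978), and the ranges overlapped. The capillary libraries are also those with the highest share of proximal tubule markers, and the part of tubular RNA in their Col4a4 level was not tested.

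Col4a3, which encodes the Goodpasture antigen chain, was the member in which a single library decided a group. In arterioles it stood at 1.91, 1.44 and 0.896 CPM in 93, 96 and 98, from 9, 9 and 8 counts, and at 155 CPM in arteriole 100, from 870 counts. Arteriole 100 thus lay above all whole kidney libraries (34.4 to 40.0 CPM), while the other arteriole libraries lay far below them. With all 4 libraries the log2 fold change against whole kidney was 0.11 ± 1.01 (SE, edgeR FDR = 0.95), and without arteriole 100 it was -4.70 (edgeR FDR = 0.00124). Without that library Col4a3 was also called lower in arterioles than in glomeruli (log2 difference -6.48, edgeR FDR = 0.00129), capillaries (-6.42, edgeR FDR = 0.000456) and venules (-5.21, edgeR FDR = 0.00529), none of which was called with it.

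The podocyte marker Nphs1, which encodes the slit diaphragm protein nephrin, did not stand out in arteriole 100. Nphs1 had 3 counts there (0.533 CPM) against 0.224 to 1.44 CPM in the other arterioles. The summed podocyte share was 0.111%, inside the 0.0839 to 0.155% of the other arterioles. Arteriole 100 had the highest share of proximal tubule markers among arterioles (1.44% against 0.536 to 0.978%) and the lowest share of smooth muscle markers (1.58% against 2.19 to 2.66%). The part of these shares in its Col4a3 level was not tested.

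In glomeruli and capillaries Col4a3 spread more widely over libraries than Col4a4. It stood at 72.4, 103, 46.4 and 285 CPM in glomeruli and at 137, 191, 27.5 and 129 CPM in capillaries. Glomerulus 100, the highest of its group, was also the highest in Nphs1 (735 CPM, against 113 to 162 CPM in the other glomeruli). By the summed podocyte share it was not the highest, with 1.04%, inside the 0.936 to 1.15% of the other glomeruli. The part of either in Col4a3 was not tested. Glomerular libraries all lay above whole kidney, but the log2 fold change of 1.79 ± 1.04 (SE, edgeR FDR = 0.470) did not pass, while a fit of these 8 libraries alone called it (edgeR FDR = 0.0333). Venules were tighter, with 54.4, 68.4, 42.2 and 43.9 CPM, all above whole kidney, and a log2 fold change of 0.51 ± 1.02 (SE, edgeR FDR = 1.00). Capillaries gave 1.72 ± 1.04 (SE, edgeR FDR = 0.545), with capillary 98 below whole kidney. By 3′ counts, Col4a4 exceeded Col4a3 in 19 of the 20 libraries, and arteriole 100 was the exception.

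Col4a5, the X-linked chain shared by both of the less common trimers, was sparse in every group. It stood at 0, 69.6, 16.6 and 1.42 CPM in arterioles, from 0, 434, 148 and 8 counts, so that the group spans the range of all others. Glomeruli held 0.798, 9.57, 4.11 and 5.49 CPM, and whole kidney 11.5, 2.75, 7.37 and 10.3 CPM. Capillaries held 0.743, 0.880, 16.6 and 4.29 CPM, and venules 2.01, 0.121, 0.184 and 20.4 CPM. The groups overlapped in every comparison with whole kidney, and the log2 fold changes of 1.46 ± 1.81 in arterioles, -0.67 ± 1.78 in glomeruli, -0.50 ± 1.78 in capillaries and -0.49 ± 1.78 in venules (SE) did not pass (edgeR FDR from 0.604 to 1.00). Between compartments the edgeR FDR of Col4a5 was 0.591 or higher, and with standard errors as large as those above, differences of several fold would not pass the test.

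Col4a6, the partner of Col4a5 on the X chromosome, had no count in any arteriole library and at most 4 counts in any capillary or venule library. Whole kidney held it steadily at 0.908, 1.49, 2.32 and 2.07 CPM, from 9, 13, 34 and 22 counts. Over the pooled counts, arterioles were at least 15.1-fold lower than whole kidney, taking the limit of 3 counts over the group that a count of 0 allows. The edgeR test of arterioles did not pass (edgeR FDR = 0.0616), and it passed with DESeq2 (adjusted p = 0.0385) and with scaling by total counts (edgeR FDR = 0.0497). No other alternative that gave a value passed, with an edgeR FDR of up to 0.384 in the version 4 form. Nor did Col4a6 pass there when any 1 library was left out (edgeR FDR from 0.0518 to 0.113). Capillaries held 5 counts in all and were 10.2-fold lower than whole kidney (95% counting interval 4.18 to 32.2), and venules held 3 counts and were 17.8-fold lower (5.89 to 88.4), and neither passed the test (edgeR FDR = 0.559 and 0.615). The bound for arterioles and these intervals cover counting error only and come from PCR reads. The microdissected libraries detected 11339 to 14164 genes each, against 18272 to 20474 in whole kidney. Loss of rare transcripts in preparation and a lower level in the vessels cannot be told apart.

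Glomerular Col4a6 came from only some of the libraries, with 0, 345, 3 and 208 counts, or 0, 38.0, 0.233 and 22.8 CPM. Glomeruli 96 and 100 thus lay above all whole kidney libraries and glomeruli 93 and 98 below them, and the log2 fold change of 3.16 ± 2.03 (SE) did not pass (edgeR FDR = 0.552). In number of members, 2 of 6 lay wholly above whole kidney in arterioles, where 8.45% of all genes did, 4 of 6 in glomeruli (14.6%), 3 of 6 in capillaries (6.07%) and 3 of 6 in venules (5.81%). The numbers in capillaries and venules depend on the TMM scaling. By unscaled totals, Col4a1 in capillary 98 (1921 of 10585288 counts) fell below whole kidney 96 (1514 of 7654464). Likewise, Col4a2 in venule 93 (795 of 9038724) fell below whole kidney 98 (1293 of 12283098). The shares of all genes were not recomputed that way. Col4a6 lay wholly below whole kidney in arterioles, capillaries and venules, where 28.0%, 18.3% and 14.4% of genes did.

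**Figure D2:**
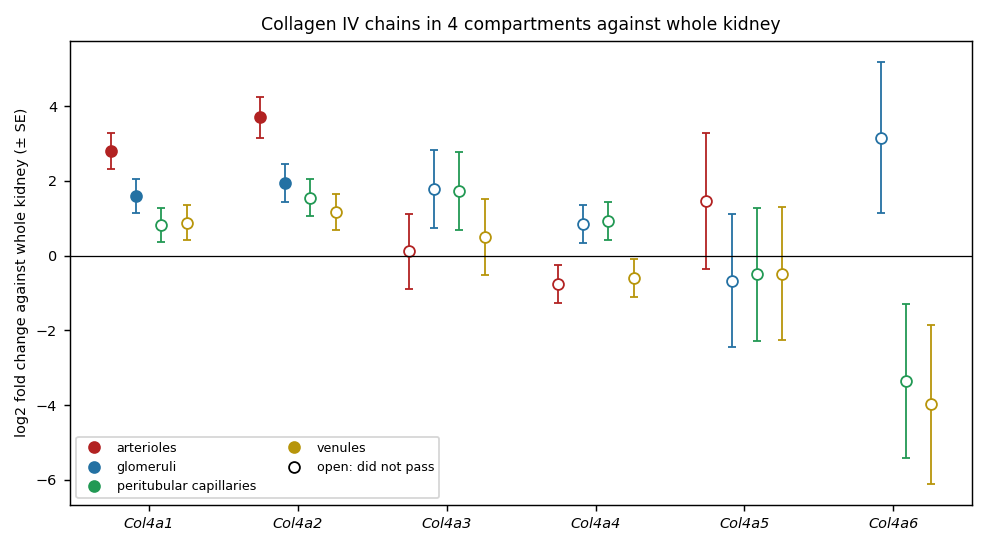
Log2 fold change of each chain against whole kidney (vertical axis, point ± SE from the 20-library edgeR fit) in the 4 compartments (colours), with filled points for those that were called. Only Col4a1 and Col4a2 in arterioles and glomeruli are filled, and Col4a6 in arterioles is not drawn because all its counts there are 0.

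The makeup of the collagen IV transcripts was described by the ratio of the summed Col4a1 and Col4a2 counts to the summed Col4a3, Col4a4 and Col4a5 counts within each library. This ratio does not depend on scaling between libraries, and as a score over the members it is given without a test. It compares 3′ counts of different genes, and whether their 3′ ends are captured alike was not tested. In arterioles, the pair took 93.9, 94.7, 96.5 and 65.4% of these counts (95% Wilson intervals from 64.1 to 66.8% in arteriole 100 and from 96.1 to 96.8% in arteriole 98). Whole kidney was near an even split of these counts, with 50.7, 51.5, 47.8 and 41.5%. The pair was thus far more dominant in arterioles, and arteriole 100 was again the library apart.

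On the log2 scale, the ratio was 3.94, 4.15, 4.78 and 0.92 in arterioles, with a mean of 3.45 ± 1.72 (SD, n = 4) and of 4.29 without arteriole 100. Venules followed with 0.59, 0.88, 2.16 and 1.43, a mean of 1.26 ± 0.69 (SD, n = 4). Glomeruli had 1.08, 0.24, 0.88 and 0.26, a mean of 0.61 ± 0.43 (SD, n = 4). Whole kidney and capillaries were lowest, at -0.12 ± 0.26 and -0.14 ± 0.46 (SD, n = 4 each). With each chain given the same weight, so that the sparse Col4a5 counts as much as the others, these means became 1.56 and 2.34. Neighbours in this order overlapped in every case but 1, since all glomerular libraries lay above all whole kidney libraries. Arterioles lay wholly above capillaries and whole kidney, venules wholly above capillaries and whole kidney, and arterioles overlapped venules and glomeruli through arteriole 100 alone.

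**Figure D3:**
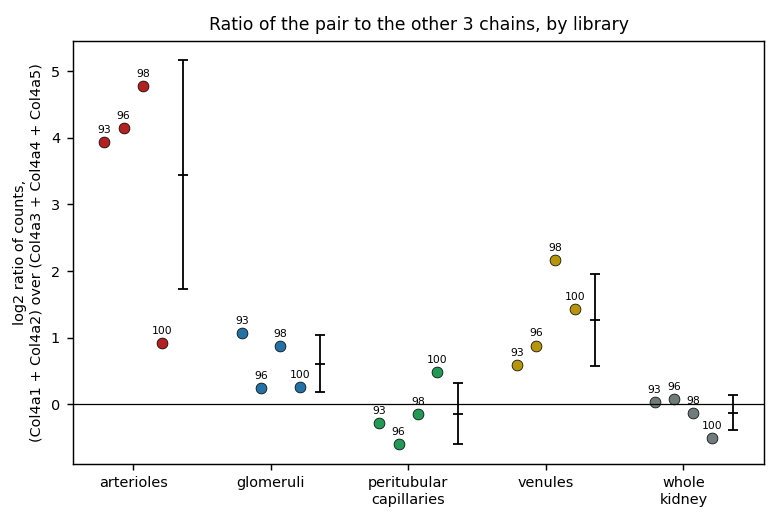
Log2 ratio of the Col4a1 and Col4a2 count to the Col4a3, Col4a4 and Col4a5 count (vertical axis) in each library (points with library numbers), with the mean and SD of each group beside them (bar, n = 4). Arterioles 93, 96 and 98 lie between 3.94 and 4.78, arteriole 100 at 0.92, and capillaries and whole kidney around 0.

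**Figure D4:**
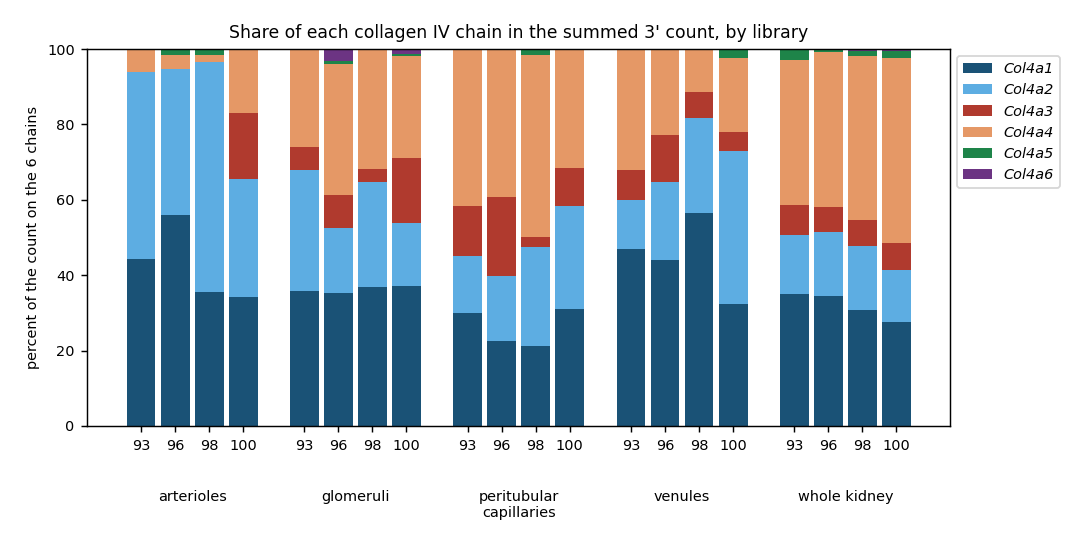
Percent of the count on all 6 chains that each chain takes (stacked colours, vertical axis) in each of the 20 libraries (bars, by group and library number). Col4a1 and Col4a2 fill most of arterioles 93, 96 and 98, and Col4a4 takes the largest share of each whole kidney library.

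By single chains, Col4a4 took 43.1 ± 4.52% of the 6-chain count in whole kidney and 40.0 ± 7.13% in capillaries (SD, n = 4 each), against 7.10 ± 6.71% in arterioles (SD, n = 4). Col4a1 took 42.5 ± 10.1% in arterioles and 45.0 ± 9.97% in venules (SD, n = 4 each), and 36.3 ± 0.97% in glomeruli (SD, n = 4). Col4a5 and Col4a6 together were minor, with group means of at most 1.59% for Col4a5 and 1.16% for Col4a6. The summed level of the 6 chains was 450.5 to 549.9 CPM in whole kidney, 558 to 877 CPM in venules, 907 to 1263 CPM in capillaries, 1173 to 1649 CPM in glomeruli and 879 to 4335 CPM in arterioles. All 16 microdissected libraries thus held more collagen IV transcript by summed CPM than any whole kidney library, but this order depends on the TMM scaling. By unscaled totals, venule 96 (4609 of 8635398 counts) fell below whole kidney 93 (4467 of 8103358 counts).

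Col4a1 and Col4a2 were not in a fixed ratio to each other. The Col4a1 count was above the Col4a2 count in all glomerular and whole kidney libraries, and the reverse was seen in arterioles 93 and 98, capillary 98 and venule 100. Across the 20 libraries the Pearson correlation of log2(CPM + 1) was 0.87 for Col4a1 and Col4a2, and 0.68 over deviations from group means. It was 0.60 and 0.25 for Col4a3 and Col4a4, and 0.23 and 0.25 for Col4a5 and Col4a6. Among these gene pairs, the one with overlapping starts therefore moved together most, also within groups, and the others less. Genes outside the members followed Col4a2 more closely, the first being Msl1 (0.91, and 0.76 over deviations). A part of the gene arrangement in these values was not tested. The points share their libraries, groups and depth, and the values are descriptions without a p. Col4a2 and Col4a3 were opposed, at -0.57 over 20 libraries and -0.65 over deviations. Arteriole 100, with the highest Col4a3 (155 CPM) and lowest Col4a2 (275 CPM) of the arterioles, weighs heavily in the latter value. The correlation without that library was not computed.

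**Figure D5:**
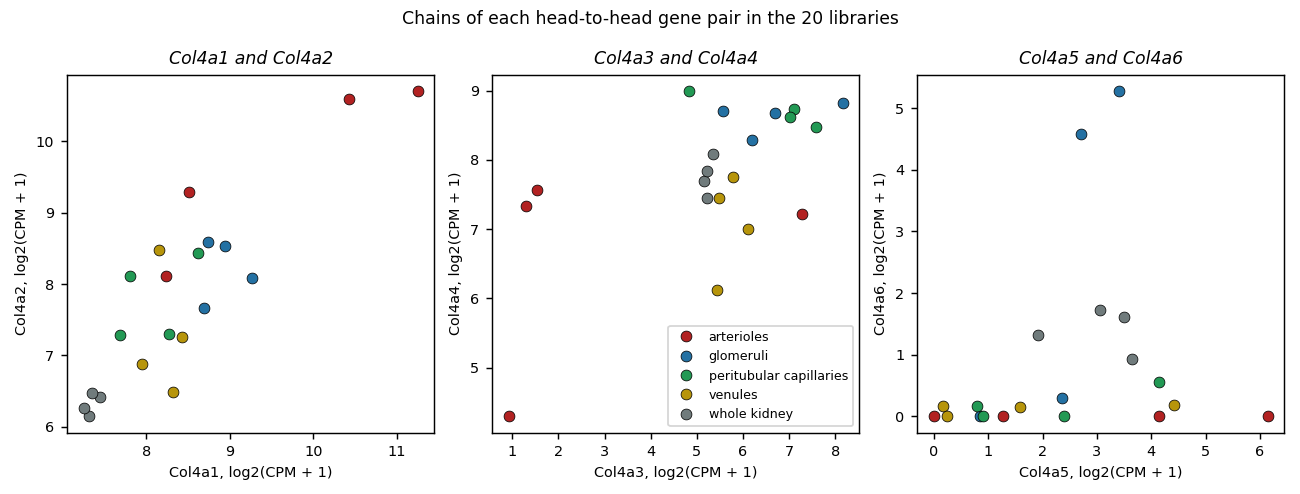
Levels of the chains of each gene pair, as log2(CPM + 1) on both axes, with 1 point per library coloured by group. Col4a1 and Col4a2 lie along a diagonal (Pearson r = 0.87, n = 20), while arterioles 93, 96 and 98 leave the other points in the Col4a3 and Col4a4 panel.

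The genes whose levels followed each chain most closely were sought among 10483 genes with at least 10 CPM in 4 or more libraries, by Pearson r of log2(CPM + 1) over the 20 libraries. Predicted genes without a proper name and the other collagen IV chains were passed over. For Col4a1 the closest were Itgb1 (r = 0.88, and 0.80 over deviations from group means), Foxn3, Tln1, Actb and Myl6, the last at 0.86. Col4a2, at r = 0.87 with Col4a1, would otherwise have stood among them. Itgb1 encodes the β1 subunit of the integrins that bind collagen IV, and Tln1 encodes talin, which links integrins to actin. For Col4a2 they were Msl1 (0.91, and 0.76), Rpl37, Tln1, Cyb5r3 and Foxn3 (0.89), so that Tln1 and Foxn3 stood on both lists. Col4a3 was followed by Wbp4 (0.89, and 0.82), Sdc4, Slc25a16, Pcyt2 and Iqsec2, and Col4a4 by Lmo7 (0.82, and 0.73), Pals1, Pdia6, Mospd2 and Dph6. Col4a5 was followed by Kdm2b (0.80, and 0.84), Cep41, Crtap, Dnmbp and Fbxl14, and Col4a6 by Taf7 (0.77, and 0.71), Hp, Adgrl3, Rnf144b and Sox5. The lists for Col4a3 and Col4a4 shared no gene.

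Other genes of the basement membrane and of collagen IV handling were read in the same comparison with whole kidney. Across all genes, 5.78% were called higher in arterioles and 1.59% in glomeruli, and 0.0941% and 0.224% were called either way in capillaries and venules. No difference in a list's count between compartments was tested. Of the laminin chains, 2 of 10 tested were called higher in arterioles and 1 of 10 in glomeruli, with none lower in any compartment. Lamb2, the β2 laminin chain of arterial and glomerular basement membranes, had 1404 ± 512 CPM in arterioles and 436 ± 59.3 CPM in glomeruli against 35.2 ± 2.89 CPM in whole kidney (SD, n = 4 each). Its log2 fold changes were 5.32 (edgeR FDR = 1.38e-08) and 3.63 (edgeR FDR = 1.70e-05), and the other laminin called in arterioles was Lama5 (4.29, edgeR FDR = 0.00607), which was not called without arteriole 96 (2.56, edgeR FDR = 0.102).

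Of the 11 other basement membrane components, 4 were called higher in arterioles, 4 in glomeruli, 0 in capillaries and 1 in venules. Sparc, Hspg2 and Col18a1 were among the calls in both arterioles and glomeruli. Sparc, a matricellular protein that binds collagen IV, had 2764 ± 889 CPM in arterioles and 2396 ± 118 CPM in glomeruli against 257 ± 8.16 CPM in whole kidney (SD, n = 4 each), and was the gene called in venules (848 ± 307 CPM, edgeR FDR = 0.00864), a call lost without venule 96 (edgeR FDR = 0.117) or whole kidney 93 or 98. Hspg2, which encodes perlecan, had log2 fold changes of 4.61 in arterioles (edgeR FDR = 4.32e-06) and 2.56 in glomeruli (edgeR FDR = 0.00933), and Col18a1, the source of endostatin, of 3.36 (edgeR FDR = 6.94e-06) and 1.97 (edgeR FDR = 0.00975). The glomerular call of Col18a1 was lost without whole kidney 96 or 98 (edgeR FDR = 0.0507 and 0.0615). The median log2 fold change of the list was 2.21 in arterioles and 1.97 in glomeruli, beside 0.22 and 0.25 over all genes.

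Genes that fold, modify and secrete collagens were called higher in arterioles in 4 of 18 tested and in the other compartments in 0 of 18, although the list's median was higher in glomeruli than in arterioles. Serpinh1, the collagen chaperone HSP47, had 488 ± 337 CPM in arterioles and 40.6 ± 17.8 CPM in whole kidney (SD, n = 4 each, log2 fold change 3.59, edgeR FDR = 0.000258). The others named were Plod3, a lysyl hydroxylase (228 ± 214 CPM against 20.9 ± 1.01 CPM in whole kidney, SD, n = 4 each, 3.44, edgeR FDR = 0.00510, with 3 arteriole libraries above and 1 below all whole kidney libraries), and Loxl1, a lysyl oxidase (3.95, edgeR FDR = 0.00578). The list median was 1.00 in arterioles, 1.58 in glomeruli, 0.72 in capillaries and 1.18 in venules.

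Of the 11 collagen IV receptors and their partners, 6 were called higher in arterioles and 2 in glomeruli, with none in capillaries or venules. Itgb1 had 1080.0 ± 499 CPM in arterioles and 739 ± 105 CPM in glomeruli against 142 ± 17.8 CPM in whole kidney (SD, n = 4 each), with log2 fold changes of 2.92 (edgeR FDR = 2.17e-06) and 2.38 (edgeR FDR = 0.000147). Itga1, the integrin α1 subunit that binds collagen IV, rose by 1.96 on the log2 scale in arterioles (edgeR FDR = 0.00206). Cd151, a tetraspanin that partners laminin-binding integrins, rose by 1.97 in arterioles (edgeR FDR = 0.00450) and by 2.10 in glomeruli (edgeR FDR = 0.00591).

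Of the 7 gelatinases and inhibitors tested, 4 were called higher in arterioles and 1 in each of the other compartments. Timp2, an inhibitor of matrix metalloproteinases, was called in arterioles (log2 fold change 4.13, edgeR FDR = 2.59e-09), glomeruli (3.64, edgeR FDR = 8.20e-08) and venules (2.68, edgeR FDR = 5.90e-05). Timp3, the matrix-bound inhibitor, was the gene called in capillaries, with 4436 ± 1104 CPM against 1332 ± 106 CPM in whole kidney (SD, n = 4 each, 1.74, edgeR FDR = 0.000116). In arterioles Timp3 (1.31, edgeR FDR = 0.000322) and Mmp14, the membrane-bound metalloproteinase that activates gelatinase A (3.22, edgeR FDR = 0.0343), were called as well. Mmp14 lost its call if arteriole 93, arteriole 100 or a single whole kidney library was left out (edgeR FDR from 0.0573 to 0.0961).

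Fibrillar collagens, which are not basement membrane collagens, were called higher in 3 of 6 tested in arterioles, 1 of 6 in venules and none in glomeruli or capillaries. Col1a1 had 972 ± 529.9 CPM in arterioles and 378 ± 149 CPM in venules against 42.9 ± 2.29 CPM in whole kidney (SD, n = 4 each), with log2 fold changes of 4.50 (edgeR FDR = 5.39e-06) and 3.14 (edgeR FDR = 0.00688), the latter not called without whole kidney 93 or 98 (edgeR FDR = 0.0572 and 0.0556). Col3a1 (3.97, edgeR FDR = 0.000277) and Col1a2 (2.50, edgeR FDR = 0.00324) were the other calls in arterioles. In these lists no gene was called lower in any compartment.

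Some annotated genes overlap the members. C430014B12Rik lies over the 3′ end of Col4a3 and Gm15418 over that of Col4a1, each on the opposite strand. Gm15418 had no count in any library, and C430014B12Rik at most 7 counts. No source used here states the strand setting of the counting, and without it the reads of such partners and of the collagen genes cannot be told apart.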

How the data were processed

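Raw read counts per gene, as deposited by the authors in a single table, were used for 20 control libraries. The authors trimmed the 3′ reads with bbduk and aligned them with STAR 2.7 to GRCm38.p6. Genes were counted with HTSeq 0.13, and the submitters' notes also list SAMtools 1.9, featureCounts and GRCm39, without saying for what step. No source used here states the strand setting or whether molecular identifiers were counted. A further 148 columns of per-sample values were not used. Totals of 4639090 to 12283098 counts set the precision, and intervals and floors cover counting error only.

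Counts were scaled by TMM and tested with edgeR 4.0.16 (quasi-likelihood, its earlier form, filterByExpr, Benjamini-Hochberg over all genes tested, R 4.3.3, limma 3.58.1). Contrasts with whole kidney came from 1 fit of all 20 libraries, and contrasts among compartments from 1 fit of the 16 microdissected libraries. Ratios used a pseudocount of 0.5 counts and correlations of 1 CPM, with Wilson intervals for shares. Alternatives were RLE size factors, total counts, no filter, an independent filter, DESeq2 1.42.0, the version 4 form of edgeR, only the libraries compared, a replicate block, no minimum fold change, and leaving out each library. The filter was rerun when a library was left out. Those fits tested 14192 to 14437 genes (20 libraries less 1) and 12748 to 13055 genes (16 libraries less 1), against 13813 and 12179 in the main fits. A call can thus also change through the set of genes tested. The test scripts were tested on simulated data. The named genes were all members, up to 3 called genes per list, direction and contrast with the smallest FDR, and the 5 genes outside the members most alike to each member. Members and lists were chosen with earlier results of these data known. Of the lists, 1 gene (Ctage5) had no row.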

Additional observations from a re-analysis of the deposited data

Results flagged for a closer look

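Of 34 groups of 4 libraries tested by the gap to the nearest other library over the group's range, read against Dixon's critical value, 3 had a library apart. For normally distributed values chance flags about 1 in 20 such groups. That rate need not hold for sparse or skewed counts like these. Col4a3 in arteriole 100 stood at 155 CPM against 0.896 to 1.91 CPM in the other arterioles. Col4a5 in venule 100 stood at 20.4 CPM, from 153 counts, against 0.121 to 2.01 CPM in the other venules. Col4a6 in venule 98 stood at 0 CPM while the other venules had 1 count each, a difference of a single read.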

How the results depend on the processing

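Of 513 values of single genes recomputed under alternatives that kept all libraries, 482 kept their direction and side of the threshold, 9 lost and 14 gained significance and 8 changed sign. When 1 library was left out, these numbers were 1379, 40, 5 and 12 of 1436. The Col4a1 and Col4a2 calls in arterioles against whole kidney were kept in all of them. The sparse counts of Col4a5 and Col4a6 limit what can be detected, and the cause of each change given here was not tested.

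The number of member calls against whole kidney was 4 and ran from 2 to 5 when 1 library was left out. Between compartments it was 4 and ran from 2 (without arteriole 96) to 8 (without arteriole 100), and against the other 3 compartments it was 2 and ran from 1 to 5. The number of calls among basement membrane and handling genes was 35 and ran from 25 to 39. Scaling by total counts moved the median of all genes by -0.69 to 0.56 and RLE size factors by -0.13 to 0.28 (log2). Total counts gave 4 calls against the other 3 compartments (3 higher, 1 lower), 6 against whole kidney (4 higher, 2 lower) and 5 between compartments (3 higher, 2 lower), where TMM gave higher calls only.

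With each chain given the same weight, the log2 ratio of the pair to the other chains became 6.08 in arterioles, 2.85 in glomeruli, 2.34 in capillaries, 3.40 in venules and 1.56 in whole kidney. Leaving out 1 library moved the ratio from 3.00 to 4.29 in arterioles, 0.46 to 0.74 in glomeruli, -0.34 to 0.02 in capillaries, 0.97 to 1.49 in venules and -0.19 to 0.00 in whole kidney.

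Signs turned only where the log2 difference had not been called. Col4a3 in arterioles against whole kidney became -0.35 with total counts and ran from -4.70 to 0.51 over left-out libraries. Col4a4 in arterioles against venules became 0.15 with RLE size factors and with DESeq2, and ran from -0.44 to 0.18. Between glomeruli and capillaries, Col4a4 became 0.48 with total counts and ran from -0.16 to 0.017, and Col4a3 became -0.012 without the filter and with the independent filter, and ran from -0.71 to 0.41. Over left-out libraries Col4a5 in arterioles against whole kidney ran from -0.42 to 1.85, Col4a3 in arterioles against venules from -5.21 to 0.0073, and Col4a1 in capillaries against venules from -0.29 to 0.042.

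The library numbers were not shown to pair the samples: 0 of 40 same-number correlations of deviations exceeded 0.1 (lowest -0.053, highest 0.071), although 31 of the 40 were above the mean correlation between different numbers, and the methods let compartments share mice. With the replicate block the counts of member calls were 4, 4 and 2 as without it. The block turned Col4a3 in arterioles against whole kidney to -1.83 and between glomeruli and capillaries to -0.33, took the call of Col4a1 in arterioles against venules (edgeR FDR = 0.0512) and called Col4a4 lower in arterioles than in capillaries (edgeR FDR = 0.0445).

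The fit of only the libraries compared gave no value of its own for the comparison with the other 3 compartments. It called Col4a4 higher in glomeruli than in venules (edgeR FDR = 0.0239) and lost Col4a1 in arterioles against capillaries (edgeR FDR = 0.0546) and venules (edgeR FDR = 0.0833). Mmp14 in arterioles and Col18a1 in glomeruli were lost without the filter (edgeR FDR = 0.0508 and 0.0541), and Sparc in venules with DESeq2 (adjusted p = 0.0541).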
